A study of Mus musculus with 10 samples.

Results

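The genes examined here are the 7 cyclin-dependent kinase inhibitors Cdkn1a, Cdkn1b, Cdkn1c, Cdkn2a, Cdkn2b, Cdkn2c and Cdkn2d together with Trp53 and Mdm2, found by their symbols in the gene tables and making up 9 of the 32285 genes measured. Each was followed across the cell classes of both inner ear organs, cochlea and vestibule, of old mice. The animals were wild-type CBA/J mice of both sexes aged 22 months, and tissue of several animals was pooled in each library, so that a library is a pool and not 1 mouse. Single cells were released from dissected organs with collagenase IV and sequenced as droplet (10x) libraries, in which each transcript is counted once through its unique molecular identifier (UMI). All samples analysed here are of this age, so no value below is a change with age. Replicate 2 of each organ repeats the cells of replicate 1, which holds all 1313 barcodes of the cochlear and 1633 of the 1641 barcodes of the vestibular replicate 2, and n is therefore 4 libraries per organ (replicates 1, 3, 4 and 5).

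As background, cells pass from the resting state into division when cyclin-dependent kinases phosphorylate the retinoblastoma protein. The INK4 inhibitors (p16 from Cdkn2a, p15 from Cdkn2b, p18 from Cdkn2c and p19 from Cdkn2d) block the kinases that pair with D-type cyclins. The Cip/Kip inhibitors (p21 from Cdkn1a, p27 from Cdkn1b and p57 from Cdkn1c) bind a wider set of kinase complexes. Trp53 encodes p53, which activates Cdkn1a and Mdm2, and Mdm2 encodes the ligase that marks p53 for degradation. Hair cells (HCs) and supporting cells of the mammalian cochlea leave the cell cycle before birth, whereas in the mouse utricle, a vestibular organ, some division goes on after birth. In mice p27 is known for holding cochlear supporting cells in that state and p19 for holding HCs in it. The p16 transcript is often used as a marker of senescent cells.

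The libraries held 2738036 to 26974948 UMIs in the cochlea and 4150642 to 24104850 in the vestibule, and replicate 3 was the largest in both organs. After filtering, 7272 cochlear and 10424 vestibular cells were clustered without the 9 genes among the clustering genes, and clusters were named from marker lists. Names below are therefore marker-based and stand for cells like the named type. Cochlear HCs (cHCs) numbered 152, with 73 of the inner type (IHCs) and 79 of the outer type (OHCs). Vestibular HCs (vHCs) numbered 1764, of which 1486 were type I, 217 type II and 61 had no type. Clusters that carried HC markers together with those of another class (70 cochlear and 511 vestibular cells) were set aside, and 1860 cochlear and 3538 vestibular cells had no name. No cluster was named endothelial. Vestibular cluster 14 (252 cells) carried 3 fibroblast or fibrocyte and 3 endothelial markers, and this tie left it without a name. The 6 HC markers summed to between 2990 and 4260 UMIs per 1000000 in every HC library.

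Levels are given as UMIs per 1000000 UMIs of that class in a library, with the mean and SD over the libraries that had at least 5 cells of the class. Over all cells of both organs Cdkn1b gave 10372 UMIs, Cdkn2d 7492, Cdkn1c 4582, Cdkn1a 4320, Mdm2 2462 and Trp53 1511. Cdkn2c gave 349 UMIs, Cdkn2b 164 and Cdkn2a 146. The map of mean levels over 24 class and organ combinations shows a different leading class for most of the genes.

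**Figure D1:**
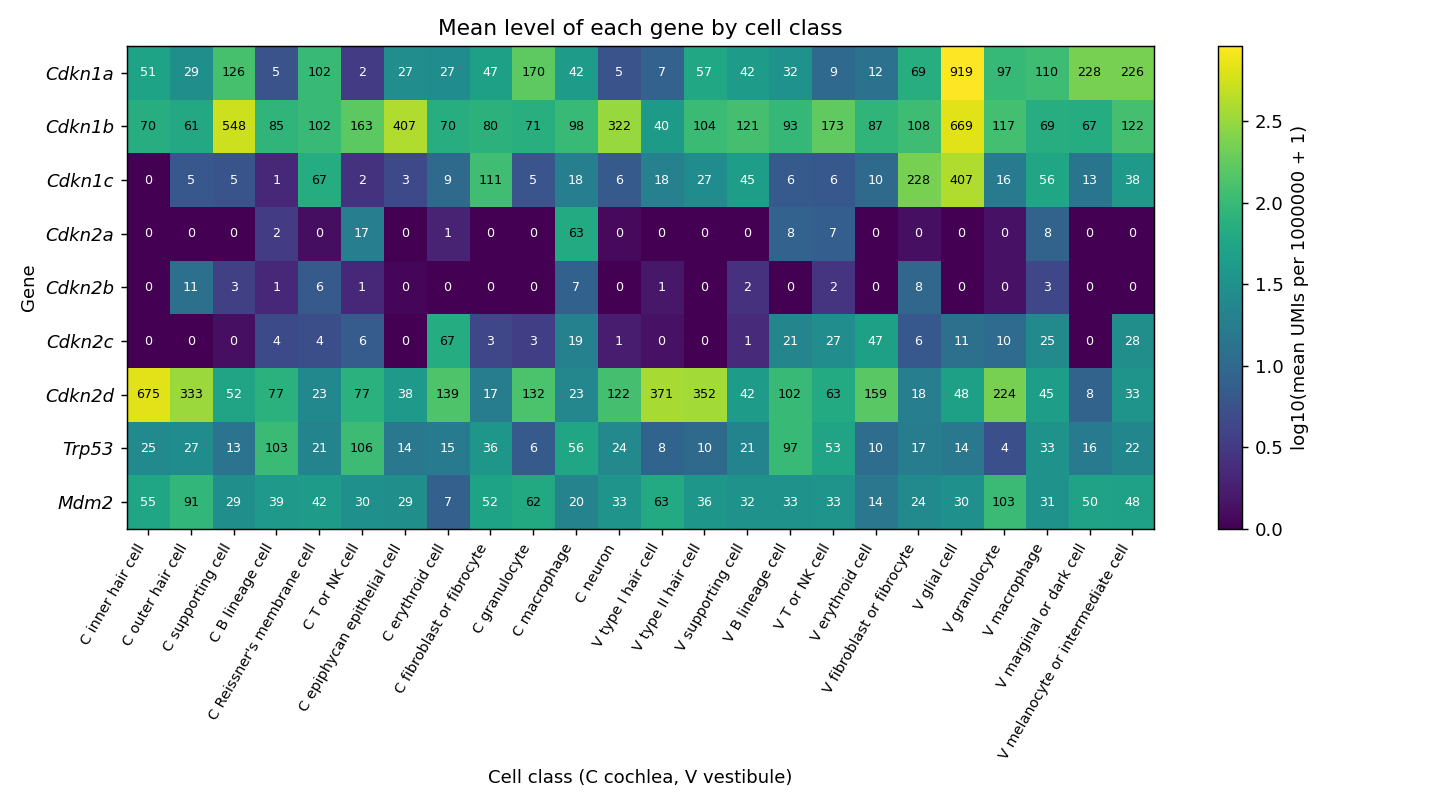
Mean level of the 9 genes (rows) in 12 cochlear (C) and 12 vestibular (V) cell classes (columns), as UMIs per 1000000 printed in each cell and coloured on a log10 scale. Cdkn2d is brightest in the HC columns, Cdkn1b in cochlear supporting cells and vestibular glial cells, and Cdkn2a reaches 63.3 in cochlear macrophages and at most 17.4 elsewhere.

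Cdkn2d, the p19 gene on chromosome 9 (21288410 to 21291407, minus strand, GRCm38), had its highest levels in HCs. Its level in cHCs was 241, 476, 724 and 563 in replicates 1, 3, 4 and 5, a mean of 501 ± 201 (SD, n = 4). In cochlear supporting cells it was 58.9, 49.1, 43.1 and 58.4, a mean of 52.4 ± 7.63 (SD, n = 4). The lowest cHC library stood above the highest supporting cell library. Cdkn2d was higher in cHCs by 3.10 on the log2 scale (SE 0.30, edgeR adjusted p = 1.58e-07). In vHCs the level was 329, 376, 348 and 351 (mean 351 ± 19.1, SD, n = 4), and in vestibular supporting cells 40.8, 40.5, 59.9 and 25.9 (mean 41.8 ± 13.9, SD, n = 4). These groups did not overlap either, and the log2 fold was 2.81 (SE 0.21, edgeR adjusted p = 8.16e-12). A UMI of Cdkn2d was found in 61.4% of vHCs (exact 95% interval 59.1 to 63.7) and in 73.7% of cHCs (65.9 to 80.5), against 4.51% of vestibular and 3.47% of cochlear fibroblasts or fibrocytes, with median depths of 4051.5, 3398.5, 2037 and 1530 UMIs per cell. Supporting cells with a UMI made up 12% in the vestibule and 19.6% in the cochlea. The highest shares outside HCs were 47.1% in vestibular granulocytes and 43.9% in cochlear neurons, with median depths of 3391 and 6813 UMIs. With each cell thinned to 1000 UMIs, the shares were 27% and 40.8% in vHCs and cHCs, 1.9% and 1.69% in vestibular and cochlear fibroblasts or fibrocytes, 3.99% and 4.59% in vestibular and cochlear supporting cells, 18.6% in the granulocytes and 9.79% in the neurons.

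The 250 bases before the start site of Cdkn2d are shown in part because its mean level was highest in the HC classes, although some HC subclusters given below were low. Those of Cdkn1b are shown because its level differed between the supporting cells of the organs. Capitals mark a CCAAT motif (written ATTGG where it lies on the other strand) or a GGGCGG motif, the sequences are from RefSeq (GRCm38.p6), and both strands were searched for each motif. The windows of 30 bases lie at chr9:21291412-21291441 and chr9:21291310-21291339 (both minus strand) and chr6:134920228-134920257 (plus strand).
Cdkn2d CCAAT: caacgcgtgctgATTGGctgttattcccag
Cdkn2d GGGCGG: caagggcgctctGGGCGGggcctggggcgg
Cdkn1b CCAAT: tcacgcgaccagCCAATgtcctggcggcgc
The first motif base lies 220, 118 and 161 bases before the start site. Both motifs are common, since 37.4% of the 32851 promoter entries hold CCAAT and 35.7% hold GGGCGG, and a match is a description of letters and not of binding.

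**Figure D2:**
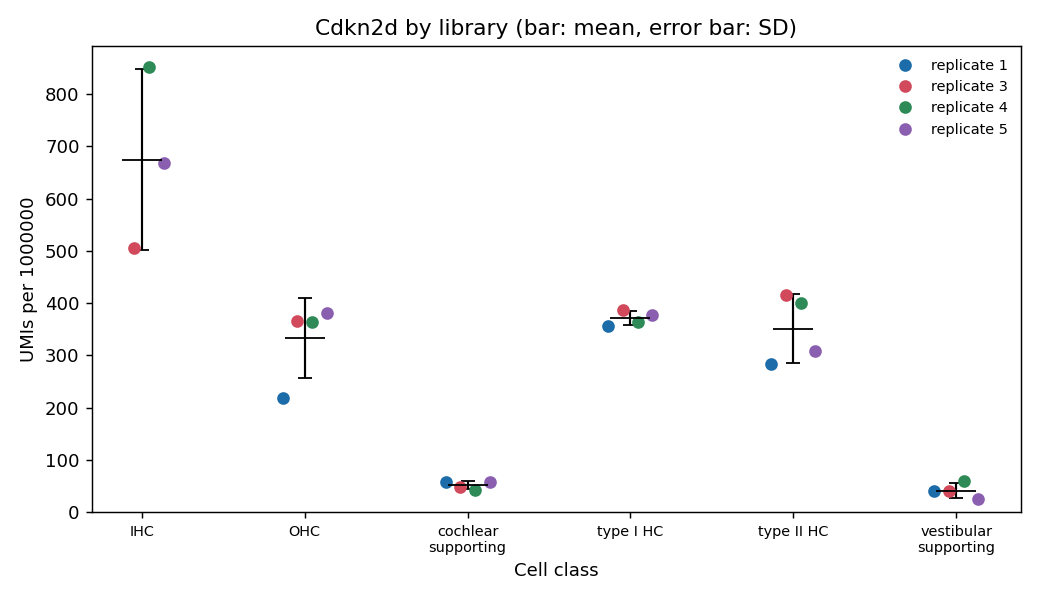
Cdkn2d in UMIs per 1000000 for each library (points coloured by replicate), with the mean (bar) and SD (error bar), in 4 HC types and in the supporting cells of both organs. Every HC library lies at 219 or above, and every supporting cell library at 59.9 or below.

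Among HC types Cdkn2d was highest in IHCs, with 505, 851 and 669 in replicates 3, 4 and 5 (mean 675 ± 173, SD, n = 3), since replicate 1 kept only 2 IHCs. These levels rested on 47, 6 and 18 IHCs. The IHCs formed 2 subclusters. Subcluster 2 (44 cells, median 10366 UMIs) carried 6 IHC markers, and subcluster 3 (29 cells, median 1767 UMIs) carried 3. Subcluster 3 gave 14 of the 18 IHCs of replicate 5. OHCs held 219, 366, 365 and 382 (mean 333 ± 76.5, SD, n = 4). No IHC library fell to the OHC range. The difference was 0.89 on the log2 scale (SE 0.29, edgeR adjusted p = 0.0152), a comparison chosen after earlier results of these data were known. It lost its call without cochlear replicate 4 (0.79, adjusted p = 0.0918) and with a minimum of 2000 UMIs per cell (0.815, adjusted p = 0.0512). Type I HCs held 356, 386, 365 and 376 (mean 371 ± 13.3, SD, n = 4) and type II HCs 283, 416, 399 and 308 (mean 352 ± 65.9, SD, n = 4). Type I libraries lay within the range of the type II libraries, and the log2 difference of 0.12 had a 95% interval from -0.21 to 0.45 (edgeR adjusted p = 0.723). Between vHCs and cHCs the difference of -0.55 (SE 0.24) did not pass the threshold (edgeR adjusted p = 0.0893). It passed without cochlear replicate 1 (-0.75, adjusted p = 0.00137) and with cells under 10% mitochondrial UMIs (-0.823, adjusted p = 0.00626). Of that library 24 OHCs and 2 IHCs were kept, where replicate 3 kept 33 and 47, so the mix of HC types kept differed between the cochlear libraries. The 70 mixed cochlear cells that were set aside carried 6 IHC and 2 OHC markers beside 5 of supporting cells. They included 19 cells of replicate 1 and 30 of replicate 3, so the few IHCs of replicate 1 depend in part on this rule.

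Within type I HCs the gene was uneven between subclusters. Subcluster 1 (364 cells, led by S100a6, S100a13 and Fndc1) had Cdkn2d at 55.7, 110, 98.5 and 55.4 in replicates 1, 3, 4 and 5. Subcluster 0 (577 cells, led by Mgat4c and Rgs9) had 465, 584, 563 and 436, and subcluster 2 (266 cells, led by Ocm and Olfm4) had 416, 548, 508 and 585. The median UMI counts of these cells were 4457, 4218 and 3835, so subcluster 1 was not the shallowest of the 3. Subcluster 4 (225 cells, median 1576 UMIs) had 307, 231, 223 and 154, between the others. The 61 untyped HCs, in which 93.4% of cells had a Sox2 UMI and 1.64% an Adam11 UMI, also had a low level (81.3, 87, 104 and 41.1). A type here needed at least 3 markers of its list, more than of the other list, and also Adam11 for type I or Sox2 for type II. The untyped cells carried 3 type I markers and 1 type II marker but did not meet the Adam11 requirement. The authors told the types apart by Adam11 and Sox2, by which alone these cells would be type II. Subclusters were defined from the same cells, so these levels are a description without a test. Counting the untyped cells as type II raised the type I against type II difference in Cdkn2d to 0.49 (edgeR adjusted p = 0.0329).

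**Figure D3:**
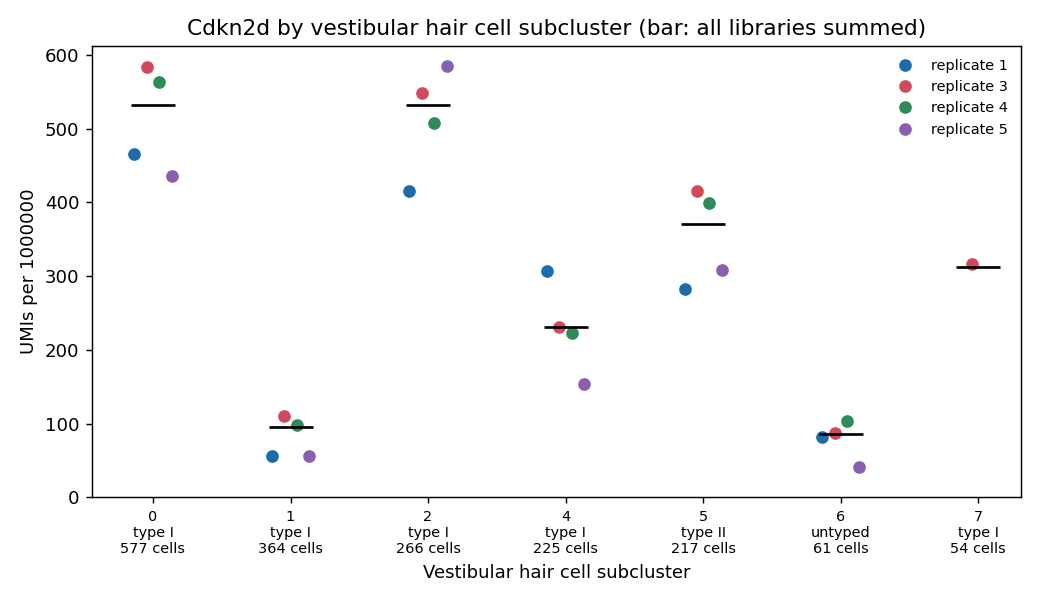
Cdkn2d in UMIs per 1000000 in each subcluster of vHCs, by library (points, libraries with at least 5 cells) and over all libraries summed (bar). Subclusters 1 and 6 lie at 110 or below in every library, while subclusters 0 and 2 lie at 416 or above.

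Cdkn1b, the p27 gene on chromosome 6 (134920401 to 134925513, plus strand), was highest among cochlear classes in supporting cells, with 468, 490, 647 and 587 in replicates 1, 3, 4 and 5 (mean 548 ± 83.8, SD, n = 4). Vestibular supporting cells held 62.6, 118, 160 and 145 (mean 121 ± 42.8, SD, n = 4). The organs did not overlap, and the vestibular level was lower by 2.29 on the log2 scale (-2.29, SE 0.26, edgeR adjusted p = 8.33e-07). cHCs held 109, 44.3, 85.7 and 54.7 (mean 73.4 ± 29.4, SD, n = 4) and vHCs 43.7, 47.2, 55.5 and 62.3 (mean 52.2 ± 8.39, SD, n = 4). HC libraries of the organs overlapped (log2 difference -0.29, 95% interval -0.89 to 0.31, edgeR adjusted p = 0.499). With the mixed clusters kept as HCs this difference became -1.08 (adjusted p = 0.000236), and in the mixed cochlear cells Cdkn1b was 195 ± 5.28 (SD, n = 4). HCs were lower than supporting cells by -3.22 (SE 0.30, edgeR adjusted p = 1.13e-07) in the cochlea and by -1.40 (SE 0.23, edgeR adjusted p = 6.60e-06) in the vestibule, where the type II libraries given below lay within the range of the supporting cells. The difference between these folds was itself past the threshold (2.01, SE 0.40, edgeR adjusted p = 0.000495). Supporting cell markers summed to between 64.2 and 145 UMIs per 1000000 in cHCs, against 1200 to 1520 in cochlear supporting cells, and their part in the level of Cdkn1b in cHCs was not tested.

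Type I HCs had less Cdkn1b than type II HCs, with 32.5, 38.0, 42.5 and 46.6 against 84.8, 99.8, 106 and 125. The groups did not overlap (log2 fold -1.33, SE 0.21, edgeR adjusted p = 3.05e-05). Supporting cell markers summed to 674 to 738 in type II HCs and to 55.7 to 115 in type I HCs, and their part in this difference was not tested. The supporting cell list includes Sox2, which a type II name required, so the gap between these sums follows in part from the naming. Among other cochlear classes, epiphycan-type epithelial cells held 407 ± 45.3 (SD, n = 4) and neurons 322 ± 93.8 (SD, n = 4). The supporting cell libraries did not overlap with those of the epiphycan-type cells, whereas the latter overlapped with the neurons. These epithelial classes are close to each other, since the 5 epiphycan-type markers summed to between 4050 and 5740 UMIs per 1000000 in cochlear supporting cells and to between 622 and 751 in vestibular ones.

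Cdkn1a, the p21 gene on chromosome 17 (29090976 to 29100727, plus strand), had its lowest mean among vestibular classes in type I HCs, while type II HCs and IHCs stood in the middle of the classes of their organ. The next class, T or NK cells (from 0 to 27.8), overlapped with type I HCs. Type I HCs held 6.19, 8.15, 6.07 and 9.51 in replicates 1, 3, 4 and 5 (mean 7.48 ± 1.65, SD, n = 4). Type II HCs held 84.8, 29.1, 43.7 and 68.5 (mean 56.5 ± 24.9, SD, n = 4), so every type II library was higher (log2 fold of type I against type II -2.59, SE 0.35, edgeR adjusted p = 2.75e-06). Cochlear supporting cells had a narrow range of 127, 125, 134 and 119 (mean 126 ± 6.25, SD, n = 4), and vestibular supporting cells held 24.5, 52.9, 48.8 and 41.4 (mean 41.9 ± 12.5, SD, n = 4). The vestibular cells were lower (-1.64, SE 0.23, edgeR adjusted p = 1.36e-05) with no overlap of the libraries. Pooled HCs of the organs differed in the same direction, with 48.3, 39.9, 76.2 and 31.3 in cHCs and 18.7, 12.5, 9.98 and 24.2 in vHCs (log2 fold -1.60, SE 0.38, edgeR adjusted p = 0.00226). This holds for vHCs as a pool made up mostly of type I cells. The type II libraries, from 29.1 to 84.8, overlapped with those of cHCs, and neither type was compared with cHCs on its own. Of the 34 UMIs of Cdkn1a in cHCs, 26 were in the IHCs of replicates 3 to 5, 4 in the 2 IHCs of replicate 1 and 4 in OHCs. HCs were lower than supporting cells by -1.61 in the cochlea (SE 0.28, edgeR adjusted p = 0.000138) and by -1.71 in the vestibule (SE 0.30, edgeR adjusted p = 1.93e-05). Type I cells make up 1486 of the 1764 vHCs, and the type II libraries, with a mean of 56.5, overlapped with those of vestibular supporting cells, with a mean of 41.9. These folds differed between the organs by 0.08 with a 95% interval from -0.88 to 1.04 (edgeR adjusted p = 0.956).

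Immediate early and heat shock genes, which respond to tissue dissociation, moved with the organ in supporting cells. The 11 genes summed to between 558 and 2340 UMIs per 1000000 in cochlear supporting cells and to between 119 and 142 in vestibular ones. All 7 that could be tested were higher in the cochlea, a direction called for 13.3% of all genes tested. Among them were Fos (edgeR log2 fold -4.27), Dusp1 (-4.25) and Egr1 (-4.00). In HCs the sums were 125 to 238 in the cochlea and 117 to 181 in the vestibule. All 7 that could be tested were also lower in cHCs than in cochlear supporting cells, the direction of Cdkn1a and Cdkn1b there. In that comparison 23.5% of all genes tested were lower. The part of the immediate early and heat shock genes in these differences was not tested. The start of Cdkn1a is shown because Trp53 is among the genes studied. Of its 2 promoter entries, the one upstream held a pair of p53 decamer motifs, which 24 of the 32851 promoter entries (0.0731%) did with a spacing of 0 to 13 bases, while 8.36% held at least 1 decamer. The first decamer of the pair starts 73 bases before the start site and lies outside the window printed here. The capitals mark the second, 51 bases before the start site, in a window at chr17:29090918-29090947 (plus strand, GRCm38.p6).
Cdkn1a: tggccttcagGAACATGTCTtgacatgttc
No other promoter entry of the 8 members with one held such a pair.

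**Figure D4:**
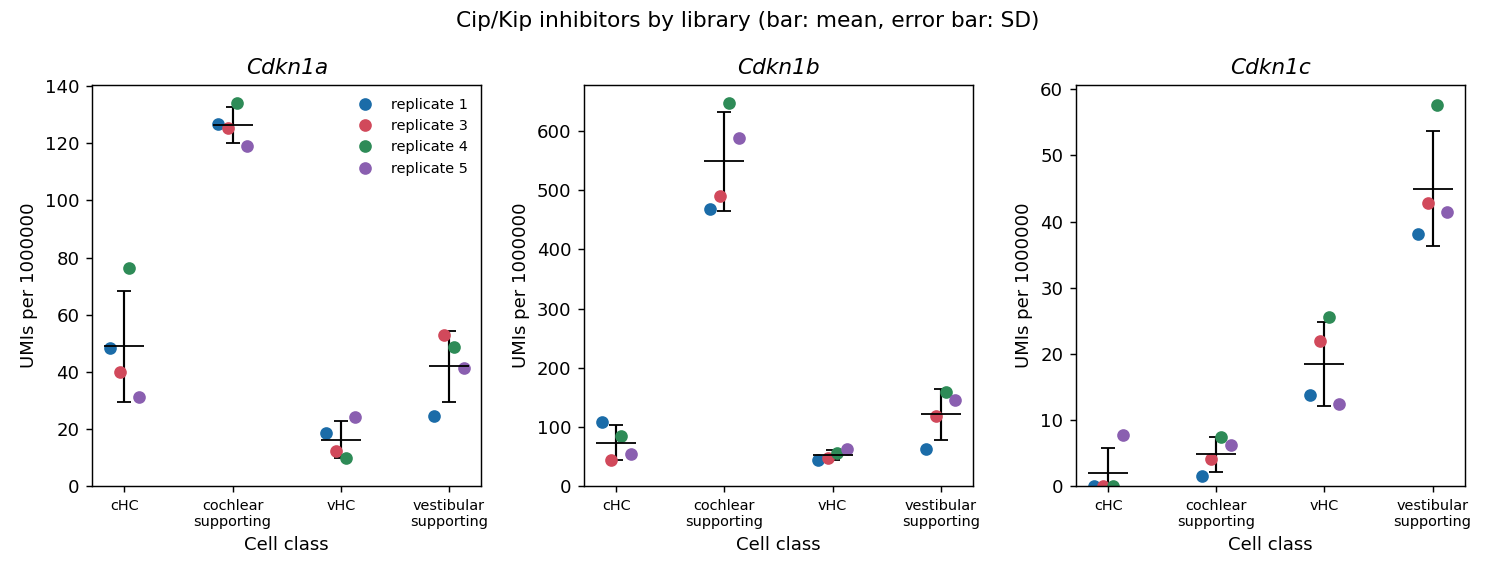
Cdkn1a, Cdkn1b and Cdkn1c in UMIs per 1000000 by library (points coloured by replicate), with mean (bar) and SD (error bar), in HCs and supporting cells of both organs. Cdkn1a and Cdkn1b stand highest in cochlear supporting cells and Cdkn1c in vestibular supporting cells.

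Cdkn1c, the p57 gene on chromosome 7 (143458339 to 143461050, minus strand), had the opposite order between the organs. Vestibular supporting cells held 38.1, 42.8, 57.7 and 41.4 (mean 45.0 ± 8.67, SD, n = 4) and cochlear supporting cells 1.51, 4.07, 7.50 and 6.26 (mean 4.84 ± 2.63, SD, n = 4). The groups did not overlap, and the vestibular level was higher by 3.07 (SE 0.34, edgeR adjusted p = 4.85e-07). vHCs held 13.7, 22.0, 25.6 and 12.5 and were lower than vestibular supporting cells (-1.40, SE 0.27, edgeR adjusted p = 5.54e-05). Type II HCs, from 11.4 to 47.1, overlapped with the supporting cells. In cHCs 1 UMI was counted among 767251, too few for the count test. The exact permutation test of vHCs against cHCs gave p = 0.0286, the smallest it can give with 4 against 4 libraries, and 0.2 after adjustment over the 14 such tests made (two-sided). The gene was high in fibroblasts or fibrocytes, with 170, 181, 324 and 236 in the vestibule and 34.6, 111, 192 and 108 in the cochlea. An antisense gene, Gm44732, lies on the opposite strand of Cdkn1c.

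All 3 Cip/Kip genes had their highest vestibular level in the glial class. With 87 cells in replicates 3, 4 and 5, Cdkn1a was at 790, 1070 and 900 (mean 919 ± 139, SD, n = 3), Cdkn1b at 503, 742 and 762 (mean 669 ± 144) and Cdkn1c at 359, 487 and 376 (mean 407 ± 69.4). In the order of vestibular classes, no library of the next class reached these values. That class was marginal or dark cells for Cdkn1a (228 ± 58.6, SD, n = 4), T or NK cells for Cdkn1b (173 ± 33.9, SD, n = 3) and fibroblasts or fibrocytes for Cdkn1c (228 ± 70.2, SD, n = 4). A Cdkn1a UMI was seen in 70.5% of the glial cells (exact 95% interval 59.8 to 79.7) and a Cdkn1b UMI in 67% (56.2 to 76.7), at a median of 1895 UMIs per cell. Cdkn2a was at 0 there and Trp53 at 14.3 ± 12.5 (SD, n = 3). The 22 cochlear cells with glial markers came from replicates 1 and 3 (4 and 18 cells), and no level is given. Cdkn1a varied widely between libraries in melanocytes or intermediate cells (88.9, 265, 467 and 82.8) and in vestibular granulocytes (271, 81.5, 13.4 and 20.2).

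Of the remaining INK4 genes, Cdkn2a (chromosome 4, 89274471 to 89294653, minus strand) had its highest mean of the named classes in cochlear macrophages, which held 65 of its 124 cochlear UMIs. Another 43 were in the 58 cells of cluster 26, which had no name. The best list of that cluster was macrophage, with 2 of 8 markers, under the 3 needed for a name. In cochlear macrophages Cdkn2a was at 124, 52.2, 28.5 and 48.2 (mean 63.3 ± 42, SD, n = 4), from 10, 51, 1 and 3 UMIs. In vestibular macrophages it was at 21.4, 1.17, 3.70 and 4.65 (mean 7.72 ± 9.21, SD, n = 4), from 1, 1, 1 and 2 UMIs. These libraries held 24, 324, 15 and 24 macrophages in the cochlea and 11, 193, 77 and 85 in the vestibule. The lowest cochlear and the highest vestibular library each rested on 1 UMI, so that their order is within counting error, and the gene was too low for the count test. The exact permutation test gave p = 0.0286 (two-sided, the smallest it can give) and 0.2 after adjustment over 14 tests. A Cdkn2a UMI was in 9.82% of cochlear macrophages (exact 95% interval 7.04 to 13.2) and in 1.37% of vestibular ones (0.445 to 3.16), at median depths of 2398 and 2754 UMIs. With cells thinned to 1000 UMIs the shares were 5.17% and 0.546%. Not 1 UMI of Cdkn2a was counted in 152 cHCs, 1764 vHCs, 1132 cochlear or 552 vestibular supporting cells, which allows shares of cells with a UMI of up to 1.97%, 0.17%, 0.265% and 0.543%. These reads come from the 3' end, which the p16 and p19ARF transcripts of the gene share, so they cannot be told apart. The 8 fibroblast or fibrocyte markers summed to 336 to 920 UMIs per 1000000 in cochlear and to 1090 to 5680 in vestibular macrophages, with no overlap. Erythroid markers summed to 435 to 34000 and 42.7 to 54900, and the 11 immediate early and stress genes to 1310 to 8040 and 1090 to 2300. Their part in the difference was not tested.

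Cdkn2b, the neighbour of Cdkn2a (chromosome 4, 89306299 to 89311039, minus strand), stayed at or under 11.4 in every class. That highest mean, in OHCs, rested on 3 UMIs. In vestibular fibroblasts or fibrocytes 47 UMIs gave 8.48 ± 3.87 (SD, n = 4). Cdkn2c (chromosome 4, 109660876 to 109667189, minus strand) was highest in erythroid cells of both organs, at 66.6 ± 37.9 (SD, n = 3) in the cochlea and 46.9 ± 34.1 (SD, n = 4) in the vestibule. No library of another cochlear class reached the lowest erythroid library, whereas vestibular erythroid cells overlapped with the next class. The erythroid clusters included cells led by Mki67 and Top2a, genes of dividing cells. HCs of both organs together held 3 UMIs of Cdkn2c.

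Trp53 (chromosome 11, 69580359 to 69591873, plus strand) was highest in lymphoid classes. In the cochlea it stood at 106 ± 53.5 (SD, n = 4) in T or NK cells and 103 ± 77.3 (SD, n = 3) in B lineage cells, and in the vestibule at 97.2 ± 62.7 (SD, n = 4) in B lineage cells. Neighbouring classes in this order overlapped. In vHCs it was 8.74, 12.5, 7.48 and 5.13 and in vestibular supporting cells 16.3, 19.1, 15.5 and 31.1. No vHC library reached the supporting cell range, and Trp53 was lower in vHCs by -1.22 (SE 0.35, edgeR adjusted p = 0.00439). In the cochlea 13 UMIs in cHCs gave 22.2 ± 14.2 against 12.6 ± 3.11 in supporting cells (SD, n = 4), and the exact permutation test gave p = 0.343 (two-sided, 0.509 after adjustment over 14 tests). The difference between the organs in this fold was -1.38 with a 95% interval from -2.70 to -0.06 (edgeR adjusted p = 0.149).

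Mdm2 (chromosome 10, 117688875 to 117710758, minus strand), the target and inhibitor of p53, went the other way. vHCs held 59.9, 47.0, 78.0 and 56.5 and vestibular supporting cells 38.1, 25.9, 28.8 and 36.3, with no overlap (log2 fold 0.77, SE 0.24, edgeR adjusted p = 0.00805). Type I HCs had a mean of 63.1, whereas type II HCs (mean 36.1, from 28.3 to 49.4) overlapped with supporting cells. cHCs held 109, 42.1, 76.2 and 78.2 and cochlear supporting cells 36.2, 31.3, 19.7 and 28.2, also without overlap (1.03, SE 0.33, edgeR adjusted p = 0.0176). The cochlear call was lost without replicate 4 (adjusted p = 0.0883) or replicate 5 (0.0895), and the vestibular call without replicate 4 (0.065). The organs' HCs differed by -0.15 (95% interval -0.76 to 0.46, edgeR adjusted p = 0.762). Type I HCs held 63.5, 48.6, 84.2 and 56.1 against 28.3, 35.3, 31.2 and 49.4 in type II. The lowest type I library lay just under the highest type II library, and the log2 fold of 0.78 (SE 0.28) missed the threshold (edgeR adjusted p = 0.0561). Both types come from the same libraries, and with the replicate block the fold was 0.705 and passed (adjusted p = 0.0336). It also passed without the filter on low counts (0.888, adjusted p = 0.0146). OHCs held the highest cochlear mean of Mdm2, at 91.2 ± 25.6 (SD, n = 4), and overlapped with the next class. Granulocytes held the highest vestibular mean, at 103 ± 88.5 (SD, n = 4), which fell to 60.5 without replicate 3.

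**Figure D5:**
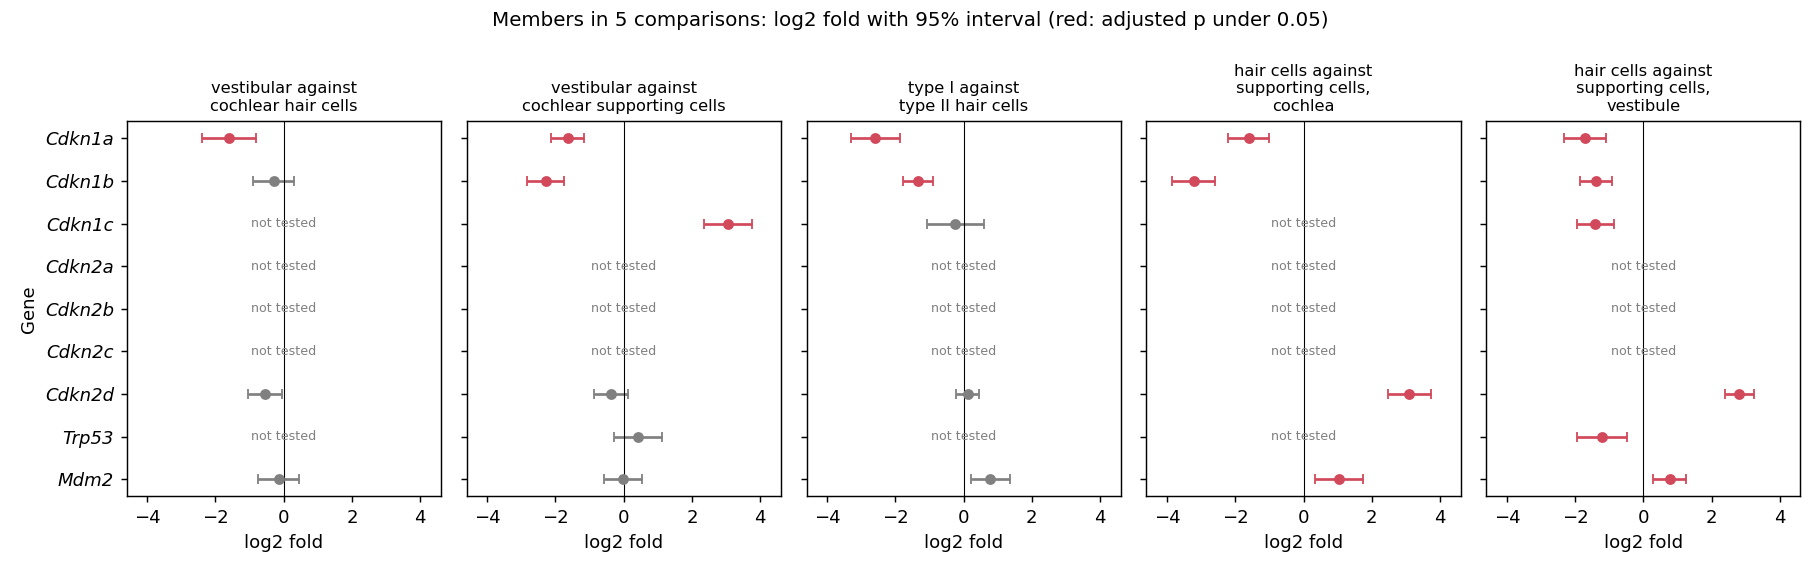
Log2 fold with its 95% interval for each of the 9 genes in 5 comparisons (edgeR, 4 libraries per group; positive values are higher in the group named before "against"). Red points have an adjusted p under 0.05, and genes too low for the count test are marked as not tested. Cdkn2d and Mdm2 lie to the right, and Cdkn1a and Cdkn1b to the left, in both comparisons of HCs with supporting cells.

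Set beside all genes, the counts of members depended on the comparison. Of the 6 members that passed the filter on low counts for vHCs against vestibular supporting cells, 2 were higher and 4 lower, where 58.8% of all genes tested were called. In the cochlea 2 of 4 were higher and 2 lower, where 43.9% of all genes were called. For vHCs against cHCs 1 of 4 was called (Cdkn1a, lower), with 31% called over all genes. For type I against type II HCs 2 of 5 were called, both lower, with 16.2% over all genes. For the supporting cells of the organs, a comparison chosen with earlier results known, 3 of 6 were called, with 29.5% over all genes. For the organ difference of the HC folds 1 of 6 was called, with 17% over all genes. For IHCs against OHCs 1 member was tested and called, with 32.2% over all genes. For macrophages 0 of 2 tested members were called by edgeR, with 0.934% over all genes, and 1 had an unadjusted p under 0.05 (Cdkn1a, log2 fold 1.57, 95% interval 0.29 to 2.86, unadjusted p = 0.0197, edgeR adjusted p = 0.303). DESeq2 gave Cdkn1a no adjusted p, and without the filter on low counts edgeR called it (1.70, adjusted p = 0.00895). Macrophage levels of Cdkn1a were 62.2, 41.0, 0 and 64.2 in the cochlea and 21.4, 255, 122 and 41.8 in the vestibule.

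The genes around these inhibitors were read from lists. Of 20 p53 targets, 10 could be tested in type I against type II HCs. Trp53inp1, an inducer of p53-dependent cell death, rose in type I HCs (2.74, edgeR adjusted p = 1.45e-08), as did Sesn1, while Btg2, an antiproliferative gene, fell (-2.92, adjusted p = 1.16e-07) with Zmat3 and Perp among the 4 that fell. The list median was -0.14, and that of all genes 0.02. Over all genes 7.58% were higher and 8.58% lower. In vHCs against vestibular supporting cells, 4 of 10 tested targets were higher (with Trp53inp1, Sesn1 and Polk the most), where 29.4% of all genes were higher, and Perp was lower (-3.10). In cHCs against cochlear supporting cells, Ccng1 was higher (1.43) and Ei24 (-1.04) and Perp lower (1 Perp UMI in cHCs, and a mean level of 53.7 in supporting cells), and the other 5 tested were not called. Over all genes tested in that comparison 43.9% were called. In vHCs against cHCs, Polk (2.92) and Trp53inp1 (1.75) were higher and Btg2 (-2.02) and Ccng1 (-0.60) lower.

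Fbxw7, part of a ubiquitin ligase that marks cyclin E for degradation, was high in type I HCs. Its mean level over 4 libraries was 669.6 in type I HCs, 77.4 in type II HCs, 33.0 in cHCs and 59.2 in vestibular supporting cells, and it was higher in vHCs than in cHCs by 3.89 (edgeR adjusted p = 5.30e-10). It was also higher in type I than in type II HCs (3.53, adjusted p = 3.87e-10). Among the retinoblastoma and E2F genes, 4 of the 5 tested were lower in vHCs than in vestibular supporting cells (E2f3, E2f5 and Rbl2 the most), where 29.4% of all genes were lower, whereas in the cochlea Rb1 was higher in HCs (0.88) and E2f5 lower (-1.38). Of the cyclins and their kinases at most 3 of 11 could be tested. Cdk4 was lower in cHCs than in cochlear supporting cells (-1.74, edgeR adjusted p = 0.0023) and higher in vHCs than in cHCs (0.97, adjusted p = 0.0469). Ccnd3 was lower in vestibular than in cochlear supporting cells (-1.04, edgeR adjusted p = 0.00519). Of 10 proliferation genes 1 or 2 could be tested in each comparison but that of IHCs with OHCs, and their sum was 25.7 to 63.6 UMIs per 1000000 in vHCs and 7.82 to 48.3 in cHCs. Mcm6, a replication licensing gene, was lower in type I than in type II HCs (-3.17, edgeR adjusted p = 1.70e-06). None of the p53 regulators tested by edgeR was called in type I against type II HCs (0 of 8) or in vHCs against cHCs (0 of 7), where 16.2% and 31% of all genes tested were called. At an unadjusted p under 0.05 there were 2 in the first comparison (Atr and Crebbp) and 1 in the second (Hipk2). Over all genes there were 1929 of 7622 in the first and 3029 of 7659 in the second. Hipk2 was lower in IHCs than in OHCs (-1.87, edgeR adjusted p = 0.00282), and Usp7 was higher and Ep300 and Crebbp lower in vHCs than in vestibular supporting cells.

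Across the 24 class and organ combinations, the genes whose levels followed each member most closely were listed among 13702 genes (Pearson r of log2 levels, a description). Combinations of an organ share their libraries and depth. The highest r was that of Cdkn2a with Ly9 (0.926), Gpr34 (0.918) and Il21r (0.918), followed by Cdkn2c with Ehbp1l1 (0.871), Mcm3 (0.862) and Mcm4 (0.856). Cdkn1c was closest to Fgf2 (0.83), Sspn (0.83) and Kank2 (0.821). Trp53 was closest to Fam76b (0.854) and the ribosomal protein genes Rplp2 (0.853) and Rpl12 (0.851). Cdkn1a was closest to Pnpla2 (0.824), Gca (0.736) and Cd9 (0.724), and Mdm2 to Gosr2 (0.789), Fbxl5 (0.775) and Unc45a (0.756). Cdkn1b was closest to Mfsd2a (0.779), Dpysl4 (0.732) and Dip2c (0.725), Cdkn2d to Fanca (0.772), Dennd4a (0.741) and Paqr9 (0.739), and Cdkn2b to Dpysl5 (0.727), Frem2 (0.652) and C1ql1 (0.649). The r values of Cdkn2b rest on few counts, since its highest mean (11.4, in OHCs) came from 3 UMIs. Among the members themselves, the highest r was that of Cdkn2a with Trp53 (0.696), and Cdkn1a with Mdm2 gave 0.176.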

How the data were processed

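The authors' deposited values are raw counts of UMIs per gene and cell barcode from Cell Ranger on mm10. Per the file headers version 5.0.1 made replicates 1 and 2 of both organs and 6.1.2 the others, while the submitters' processing notes name 6.1.2 alone. Replicates 1 and 2 of an organ hold the same cells and replicate 2 was left out (median correlation of the same barcode 0.9917 in the cochlea and 0.9958 in the vestibule). Other library pairs shared at most 41 barcodes.

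Barcodes were kept with 200 genes or more, 1000 UMIs or more and a mitochondrial share of UMIs under 25%. Each organ was clustered in Seurat 5.3.0 (R 4.3.3) with 2000 variable genes without the 9 members, 30 principal components and resolution 1. A class needed at least 3 markers, each in at least 25% of cells and with a log2 fold of at least 1. HCs were clustered again at resolution 0.5. Type I required Adam11 and type II Sox2 in 25% of cells, and HC subclusters with 3 markers of another class, or 5 of 10 leading genes shared with it, were set aside. These rules were set after the clusters were seen. Doublets were not called.

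For each class and library of 5 cells or more, UMIs were added up, and edgeR 4.0.16 was run on these sums (TMM, filterByExpr, quasi-likelihood test, Benjamini-Hochberg adjustment over all genes tested, threshold 0.05). Intervals use the quasi-likelihood degrees of freedom. DESeq2 1.42.0 was the alternative. Members below the filter with at least 20 UMIs over both groups were tested by an exact permutation test. On simulated counts of vHCs against cHCs, 96.6% of 175 tested genes changed by 2 (log2) were called, over 7612 genes, and 3.43% of the calls were of unchanged genes. The simulation gave every gene the same fixed dispersion, not fitted to these libraries, and changed only genes above a minimum mean level. These rates therefore do not measure how the test performs at the spread of the real libraries or for low genes. Intervals of shares cover counting error only. Classes were ordered by mean level, and neighbours were compared by the ranges of their libraries.

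All 9 members are named in each comparison, and of each list up to 3 called genes per direction. Members, lists and comparisons were chosen with earlier results of these data known. HC and supporting cell sums of 1 number come from 1 library. Their deviations from the group means correlated at 0.193 to 0.376 in the vestibule and 0.134 to 0.306 in the cochlea, and those of type I and type II HCs at 0.19 to 0.279. Nothing in the sources used here says whether cochlea and vestibule of 1 number come from the same mice, and their correlations were 0.0545 to 0.163 for HCs and 0.0681 to 0.356 for supporting cells, each library correlating best with its own number. Replicates are separate pools of mice by the labels, and p-values measure the spread between these libraries only. The planned comparison of endothelial cells was not made, since no cluster was named endothelial. Positions are those of GENCODE M21 (GRCm38).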

Additional observations from a re-analysis of the deposited data

Results flagged for a closer look

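In OHCs the Cdkn2d level of replicate 1 was 219 UMIs per 1000000, apart from the other 3 libraries at 365 to 382. It was the only one of 48 groups of 4 libraries with a sample this far from the rest by Dixon's criterion, and chance alone flags about 1 group in 20.

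The fold of HCs over supporting cells differed between the organs, by a test of the difference itself (vestibule minus cochlea, edgeR), for Cdkn1b (2.01), Polk (3.69), Trp53inp1 (3.39), Fbxw7 (2.83), Sesn1 (1.45), Cdk4 (1.41), Rb1 (-1.46) and E2f3 (-1.62). The immediate early genes Fos (4.64), Dusp1 (3.81), Junb (2.37), Egr1 (11.9) and Zfp36 (6.67) differed in the same way. Egr1 and Zfp36 had 0 UMIs in cHCs, so that their fitted values depend on the prior count and are no measure of size.

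Among cells with no class, cochlear cluster 26 (58 cells, led by Mmp12, Gpnmb and Ctsk) had Cdkn2a at 73 UMIs per 1000000 over all libraries summed (98.1 in replicate 3, 20 in replicate 1 and 0 in replicate 4). The mean of these 3 libraries was 39.4 ± 51.8 (SD), below the mean of 63.3 in cochlear macrophages. Vestibular cluster 27 (108 cells, 104 of them in replicate 3, led by Ccdc153 and Tppp3) had Cdkn2b at 21.8. These clusters entered no comparison.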

How the results depend on the processing

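The counts of genes called stayed within 1.5 times of those reported with DESeq2, at resolution 0.6 and with the mean of replicates 1 and 2. Without a filter on low counts, edgeR called 4553 genes for HCs against supporting cells in the cochlea, 182 for macrophages, 3617 for the supporting cells of the organs and 816 for IHCs against OHCs, where 3024, 24, 2387 and 494 were reported. With cells under 10% mitochondrial UMIs the counts were 1437 for vHCs against cHCs, 15 for macrophages, 887 for the organ difference of the HC folds, 1262 for supporting cells and 169 for IHCs against OHCs. In the same cells Cdkn2b in OHCs was at 27.8 and Cdkn2d in IHCs at 907. With at least 2000 UMIs per cell 14 genes were called for macrophages. The cause of these changes was not tested.

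With the replicate block, 1660 genes were called for type I against type II HCs, 5950 and 3408 for HCs against supporting cells in the vestibule and cochlea, 2163 for the organ difference, 2282 for vHCs against cHCs, 3026 for supporting cells, 488 for IHCs against OHCs and 13 for macrophages. The block changed no call of a member but that of Mdm2 in type I HCs. For vHCs and cHCs, every library correlated best with the other organ's library of its own number, a hint from the data and not from the design, which was not so for macrophages.

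Without 1 library each, 0 to 66 genes were called for macrophages (0 without vestibular replicate 3 or 4, 3 without replicate 5 and 66 without replicate 1), 1084 to 1911 for the organ difference (lowest without cochlear replicate 3) and 748 to 1307 for type I against type II HCs (lowest without vestibular replicate 3). Signs turned only for members that were not called. Their ranges were -0.495 to 0.0072 for Mdm2 in vHCs against cHCs, -0.535 to 0.0464 for Cdkn1c in type I HCs, -0.188 to 0.0835 for Mdm2 in supporting cells, and, for the organ difference, -0.124 to 0.436 (Cdkn1a), -0.331 to 4.07 (Cdkn1c), -0.377 to 0.174 (Cdkn2d) and -0.569 to 0.141 (Mdm2). The organ difference also turned for Cdkn2d (0.111) and Mdm2 (0.143) without the filter, for Cdkn1c (-0.708) under 10% mitochondrial UMIs, for Cdkn1a (-0.166) with at least 2000 UMIs, and for Cdkn1a (-0.095) and Cdkn1c (-0.337) with the mixed clusters kept. Mdm2 in supporting cells turned with the mean of replicates 1 and 2 (0.0052), under 10% mitochondrial UMIs (0.0026) and with at least 2000 UMIs (0.0559), and Cdkn1c in type I HCs with the untyped cells as type II (0.237). Keeping mixed clusters or counting untyped cells were alternatives chosen after seeing the data. The alternatives for endothelial cells were not run. Cochlear HCs, with 14 to 80 cells per library, and genes under 20 UMIs limit what could be tested.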

Other observations

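Some clusters with no class held high levels of the Cip/Kip genes. Vestibular cluster 27, led by Ccdc153, Tppp3 and Tmem212, had Cdkn1a at 599 UMIs per 1000000 in replicate 3, the only library with at least 5 of its cells. Cochlear cluster 26, with Mmp12 and Gpnmb among its leading genes, had Cdkn1c at 395 over all libraries summed, but at 567 in replicate 3, 20 in replicate 1 and 0 in replicate 4, while Cdkn1a was at 208, 70 and 56.1. Vestibular cluster 30, led by Slc4a10 and Slc47a1, had Cdkn1c at 249, 186, 511 and 240 in replicates 1, 3, 4 and 5. Cochlear cluster 22, led by Lmo3 and Rubie, had Cdkn1b at 196, 222 and 188 in replicates 1, 3 and 4.

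Mixed clusters, set aside from the HCs, had Cdkn2d at 380 ± 169 in the cochlea and 278 ± 80.8 in the vestibule (SD, n = 4), and Cdkn1a at 112 ± 37.8 and 46.4 ± 9.73.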
